A study of Rattus norvegicus with 16 samples.

Results

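The genes described here are 8 transcriptional regulators that set the identity and the metabolic state of the hepatocyte: the factors Hnf4a and Cebpa, the nuclear receptors Nr1i3 (CAR), Nr1i2 (PXR), Nr1h4 (FXR), Nr1h3 (LXRα) and Ppara, and the receptor-like repressor Nr0b2 (SHP). They were chosen by name, with earlier results of these data known, and the RefSeq accession of each probe gave its gene. The 8 genes were read by 10 probes, of 30367 probes on the array, and all 8 were among the 20789 genes tested, so that the filter on dim probes removed none. Primary hepatocytes of male Sprague Dawley rats were kept in Williams Medium E, a culture medium, and were given 100 µM SQ1, a compound the labels name only by this code, or 30 µM pravastatin, a statin that inhibits HMG-CoA reductase, or were left untreated. Treatment began 48 hours after plating and lasted 48 hours, and no vehicle is named for the untreated cultures. Each of the 16 two-colour arrays held RNA of 1 treated and 1 untreated culture, with 8 arrays for each drug and 4 of these in each dye orientation.

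Nuclear receptors are transcription factors that are switched by small lipophilic ligands, and most of those named here bind DNA together with RXR. CAR and PXR sense drugs and steroids and raise cytochromes P450 and transporters. FXR senses bile acids and induces SHP, which lacks a DNA-binding domain and represses bile acid synthesis, while LXRα senses oxysterols and PPARα senses fatty acids. HNF4A and C/EBPα hold up the general programme of the differentiated hepatocyte. For these proteins the amount of mRNA is only one layer of control, since ligand, partner and location in the cell also set their activity, and an array reads mRNA alone.

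The deposited value table and the scanner files did not carry the same labels. A column of the table labelled SQ1 matched the scanner file of the pravastatin array of that number, and the reverse. Correlations across probes were 0.938 to 1.00 for these matches, and 0.422 to 0.562 for columns set against the scanner file of their own label. Which of the 2 deposits carries the right labels was not tested. If the scanner files are the exchanged ones, the values given below for SQ1 and for pravastatin trade places. The groups used here are those of the sample labels and of the scanner files under them. Under these labels the same-numbered arrays of SQ1 and of pravastatin carry the same control number, 8 numbers in all, so the comparisons of each drug with untreated cells share their untreated cultures, and their values are set side by side below. The arrays fall into 2 culture series by these numbers, replicates 1, 2, 5 and 6 in the first and 3, 4, 7 and 8 in the second, which coincide with the scan days. Each of the 4 slides held 1 drug of 1 series, so drug and slide cannot be told apart, nor can series, slide and scan day. Ratios of a drug's arrays correlated with each other at 0.752 to 0.956 for SQ1 and at 0.567 to 0.910 for pravastatin, across probes, which are not independent. All 8 hepatocyte markers, among them Fgb, Ambp and Ahsg, which encode secreted plasma proteins, were well above background in all 32 channels. RNA came from whole cultures, in which fewer cells of a type and less RNA per cell cannot be told apart.

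With SQ1, 7 of the 8 regulators fell and 1, Ppara, rose, at an adjusted p under 0.05 in limma. Of all genes tested, 63.8% passed this threshold with SQ1, 32.6% upwards and 31.2% downwards, so that a call by itself says little about a gene. At 1.5-fold or more, 4 of the 8 changed (Nr1i3, Nr1i2, Nr1h4 and Nr0b2), against 7.41% of all genes. The median change of the 8 genes with SQ1 was -0.45 on the log2 scale of treated over untreated, against 0.0073 for all genes. With pravastatin, 7 of the 8 fell and none rose, where 38.9% of all genes passed the test and 19.6% did so downwards. Nr1h3 did not pass. At 1.5-fold or more, 3 of the 8 changed with pravastatin (Nr1i3, Nr1h4 and Nr0b2), against 1.93% of all genes, and the median of the 8 was -0.20. Within the first culture series alone, 4 of the 8 passed the test with pravastatin, where 19.3% of all genes did. The shares of all genes over both series also apply to the list counts below.

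Between the drugs, at unequal doses of 100 and 30 µM and on separate slides, 6 of the 8 genes differed, where 37.9% of all genes did. SQ1 gave the lower value for Cebpa, Nr1i2, Nr1h4 and Nr1h3 and the higher for Nr0b2 and Ppara. At 1.5-fold or more, 2 differed (Nr1h4 and Nr0b2), against 4.18% of all genes, and the median of the 8 differences was -0.16.

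**Figure D1:**
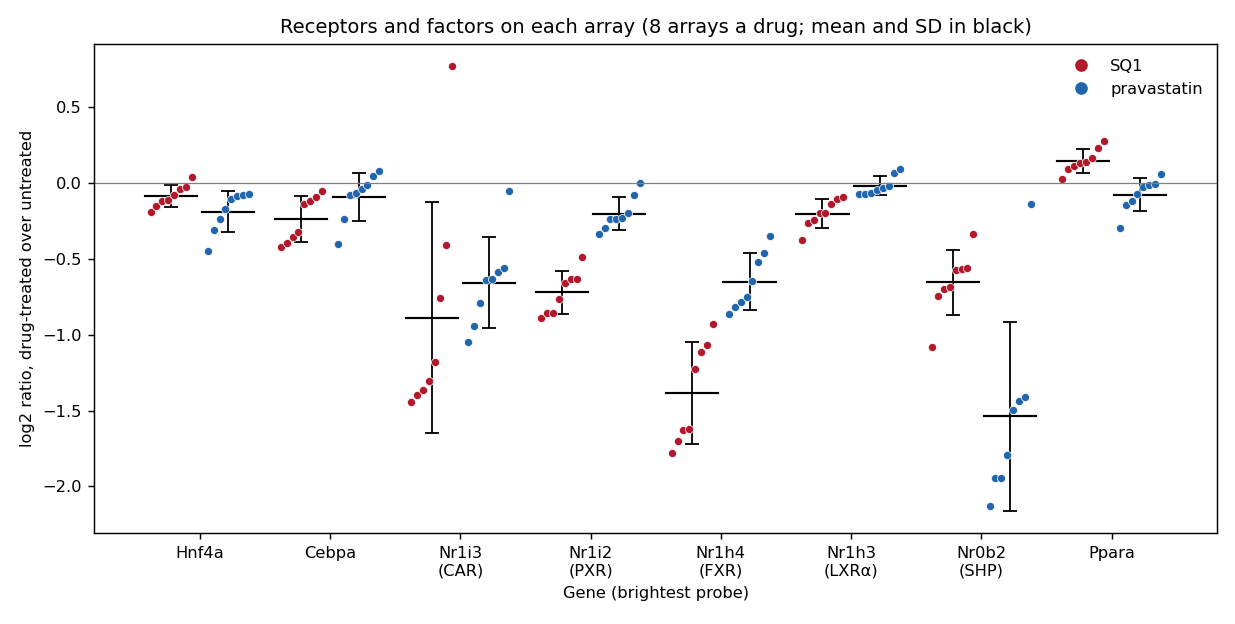
Log2 ratio of treated over untreated on each array for the 8 genes, each by its brightest probe, with SQ1 (red) left of pravastatin (blue). The bar and whiskers give the mean and SD of 8 arrays. The points of Nr1h4 with SQ1 lie between -1.78 and -0.93, and single arrays stand apart for Nr1i3 with SQ1 (0.77) and Nr0b2 with pravastatin (-0.14).

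By the brightest probe of each gene, FXR mRNA had the largest change of the 8 genes with SQ1, though the dimmer probe of CAR, described below, gave a larger one. The brighter probe of Nr1h4, the bile acid receptor, had a normalised level of 13.66 to 13.80 (median 13.74, log2 intensity) in the 8 cultures given SQ1, against 14.68 to 15.51 (median 15.15) in the untreated cultures on the same arrays. The 2 groups did not overlap, and the share of all genes without such overlap is not given here. The SD of the level was 0.04 in the SQ1 cultures and 0.35 in the untreated ones. It was 0.11 in untreated cultures of the same control numbers on the pravastatin arrays. By the dimmer probe the SD was 0.14 with SQ1 and 0.20 untreated on the same arrays. The log2 ratio ran from -1.78 to -0.93 with a median of -1.43, and the fitted change was -1.38 ± 0.08 (SE, 8 arrays), a 2.61-fold fall (limma, adjusted p = 1.03e-10). Of all genes, 1.09% changed by more in either direction. With pravastatin, the level was 14.30 to 14.63 (median 14.44), against 14.95 to 15.28 (median 15.10) in untreated cultures, again without overlap. The log2 ratio ran from -0.86 to -0.35 (median -0.70), and the fitted change was -0.65 ± 0.08, a 1.57-fold fall (limma, adjusted p = 8.81e-06). The fall with SQ1 exceeded that with pravastatin by 0.74 on the log2 scale (SQ1 minus pravastatin -0.74 ± 0.12, adjusted p = 8.69e-05). This difference was -0.20 (adjusted p = 0.114) when the arrays were scaled to one spread. The dimmer probe of the gene gave smaller falls of -0.87 ± 0.09 with SQ1 and -0.36 ± 0.09 with pravastatin, both lower on 8 of 8 arrays.

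The size of the FXR fall differed between the culture series. With SQ1 the log2 ratio was -1.78 to -1.62 on the 4 arrays of the second series, against -1.23 to -0.93 on the 4 of the first. With pravastatin it was -0.86 to -0.75 in the second series, against -0.65 to -0.35 in the first. The series did not overlap with either drug, and the dimmer probe separated them in the same way, at -1.28 to -0.97 in the second and -0.76 to -0.47 in the first with SQ1. The difference of the series was -0.60 with SQ1 (adjusted p = 4.77e-06) and -0.31 with pravastatin (adjusted p = 0.00393). Of all genes, 14.7% differed between the series with SQ1 and 4.94% with pravastatin. By the brighter probe, the Nr1h4 level with SQ1 was 13.73 to 13.80 in the second series and 13.66 to 13.78 in the first. Untreated levels on these arrays were 15.37 to 15.51 against 14.68 to 14.94. With pravastatin the treated levels were 14.30 to 14.38 in the second series against 14.49 to 14.63 in the first. Untreated levels there were 15.08 to 15.22 against 14.95 to 15.28. The PXR ratio with SQ1 was lower in the second series as well, at -0.89 to -0.77 against -0.66 to -0.49 (difference -0.24, adjusted p = 0.00918). Its treated levels were 13.03 to 13.16 against 12.90 to 12.98, and its untreated levels 13.92 to 13.93 against 13.46 to 13.63. The SHP ratio was lower there with pravastatin, at -2.13 to -1.80 against -1.50 to -0.14 (difference -0.83, adjusted p = 0.0379). Treated levels of SHP were 7.18 to 7.34 against 7.08 to 8.06, and untreated levels 9.06 to 9.31 against 8.20 to 8.75. Without pravastatin replicate 1 the SHP difference was -0.50 (adjusted p = 0.0228), and it did not pass without pravastatin replicate 3, 4 or 7 (adjusted p from 0.0739 to 0.102) or SQ1 replicate 7 (adjusted p = 0.05002). The other series differences of the 8 genes did not pass the test.

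Most genes that FXR is known to induce were lower too. Of 13 measured genes of this kind, 11 fell and 2 rose with SQ1, with a median of -0.92, where 31.2% of all genes fell and 32.6% rose. The largest changes were in Slc27a5, the bile acid CoA ligase (-2.14 ± 0.06, 4.41-fold), Baat, which joins bile acids to taurine or glycine (-1.73 ± 0.07), Apoc2, the cofactor of lipoprotein lipase (-1.62 ± 0.05), and Fgb, the fibrinogen β chain (-1.42 ± 0.04). Each was lower on 8 of 8 arrays. Of the rest, named after their values were seen, Abcb11 fell by 0.36 (SE 0.04), while Sdc1 (0.17) and Mafg (0.09) rose. Slc51a, also on the list, was too dim, and Slc51b had no matched probe. With pravastatin, 7 of the 13 fell and 1 rose, with a median of -0.38, where 19.6% of all genes fell and 19.3% rose. Among those lower on 8 of 8 arrays, the largest falls were in Apoc2 (-0.71 ± 0.05), Baat (-0.64 ± 0.07), the complement gene C3 (-0.54 ± 0.05) and the fibrinogen chain Fgg (-0.42 ± 0.06). Slc27a5 had a value of 0.02 with pravastatin (adjusted p = 0.821) and differed between the drugs by -2.16. Fgb is also among the 8 hepatocyte markers. All 8 fell with SQ1 (median -0.71), while 6 fell and 2 rose with pravastatin (median -0.29). With pravastatin, Alb, Ambp, Tf and Ttr were each called although higher on 4 arrays and lower on 4, as was Ttr with SQ1. Alb and Tf were lower on 6 arrays and higher on 2 with SQ1. The markers' median on single pravastatin arrays ran from -0.72 to 0.28. The summed signal of the 8 was 896071 to 1499850 with SQ1, against 1540270 to 2164350 in untreated cultures. With pravastatin it was 1271730 to 1777040, against 1277820 to 2034430 in untreated cultures, and was lower on 4 of 8 arrays. The part of these marker changes in the FXR list was not tested.

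SHP showed the largest fall of the 8 genes with pravastatin. The level of Nr0b2 was 7.08 to 8.06 (median 7.26) with pravastatin, against 8.20 to 9.31 (median 8.91) in untreated cultures. The groups did not overlap. The log2 ratio ran from -2.13 to -0.14 with a median of -1.65, where 7 arrays lay at -1.41 or lower and replicate 1 stood apart. The fitted change was -1.54 ± 0.15 (limma, adjusted p = 2.19e-07), a 2.90-fold fall, and -1.74 without replicate 1. With replicate 1 kept, 0.308% of genes changed by more in either direction. Signals of the pravastatin cultures were near the local background, at 347 to 442 against a background of 304 to 345 (arbitrary units), although the scanner software marked the probe well above background in all 32 channels. From the processed signals of the scanner software the fall was -2.57, or 5.92-fold, and replicate 1 then lay at -2.11, the highest of a range that reached down to -3.19. With SQ1 the level was 7.86 to 8.44 (median 8.14), against 8.46 to 9.16 (median 8.79) in untreated cultures. The log2 ratio was -1.08 to -0.34 (median -0.63), below 0 on 8 of 8 arrays, and the fitted change was -0.66 ± 0.15 (adjusted p = 0.000756). SQ1 minus pravastatin was 0.88 ± 0.21 (adjusted p = 0.00245), the smaller fall being with SQ1. The difference was 0.57 within the first series, where it did not pass the test (adjusted p = 0.102), and 1.74 from the processed signals.

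**Figure D2:**
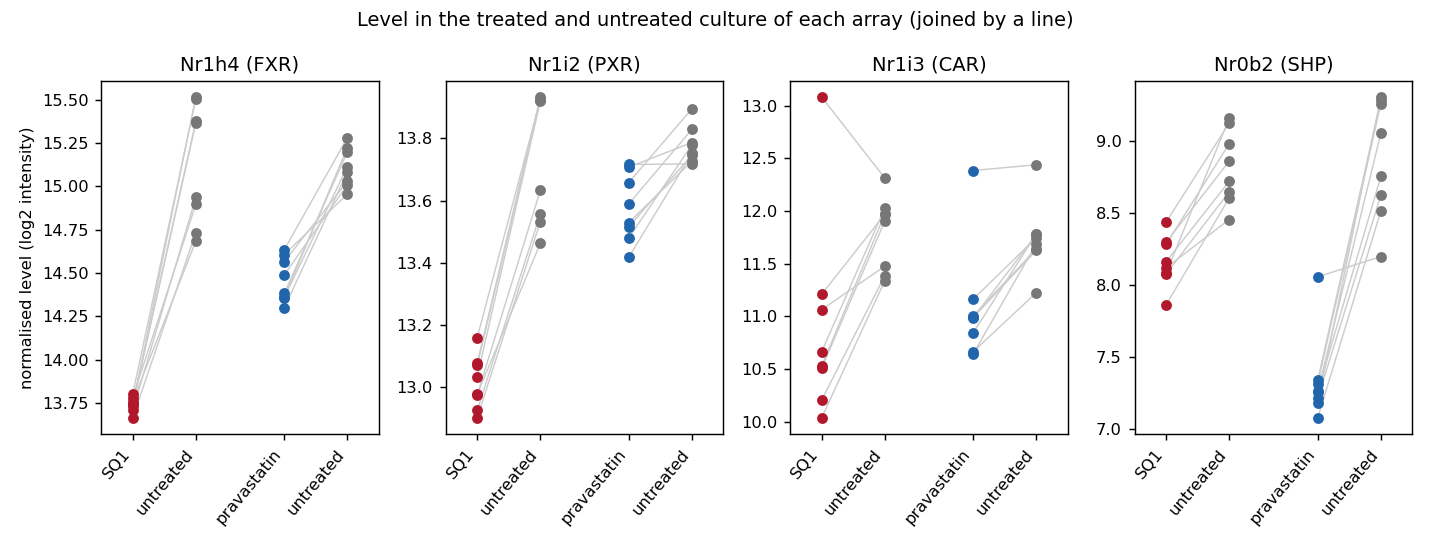
Normalised log2 intensity of 4 receptors in the treated (coloured) and untreated (grey) culture of each array, joined by a line, for SQ1 and for pravastatin. Treated and untreated levels of Nr1h4, Nr1i2 and Nr0b2 did not overlap with either drug, though those of Nr1i2 with pravastatin came close. For Nr1i3 the treated culture of SQ1 replicate 5 lay above its untreated partner.

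The genes that SHP is known to repress did not rise with either drug. All 7 measured genes of this kind fell with SQ1, with a median of -1.73, and all 7 fell with pravastatin, with a median of -0.50. With SQ1, G6pc1, the last enzyme of glucose release, fell by 3.02 on the log2 scale (SE 0.06), Slc10a1, the bile acid uptake transporter, fell by 2.53 (SE 0.12) and Cyp8b1, the sterol 12α-hydroxylase, fell by 2.06 (SE 0.08). Cyp7a1, whose product sets the pace of bile acid synthesis, fell by 1.73 (SE 0.13). With pravastatin, Cyp7a1 fell by 1.70 (SE 0.13), Slc10a1 by 1.48 (SE 0.12), G6pc1 by 1.00 (SE 0.06) and Cyp8b1 by 0.50 (SE 0.08). Each was lower on 8 of 8 arrays of the drug. Cyp7a1 did not pass the test of a difference between the drugs (-0.04, adjusted p = 0.897), whereas Cyp8b1 differed by -1.56 and G6pc1 by -2.02. Nr5a2 (LRH-1), the receptor through which SHP is known to repress Cyp7a1 and Cyp8b1, had a fall of 0.58 with SQ1 (SE 0.10, adjusted p = 3.93e-05) and of 0.28 with pravastatin (adjusted p = 0.0316).

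The promoters of SHP and of Slc10a1, a gene it represses, are printed because both genes fell with both drugs and because receptor half-sites of known kinds can be read in them. The window of Cyp8b1, which fell with both drugs too, was searched in the same way and held none of the motifs. They are the 250 bases before the annotated start, from RefSeq, with capitals on the letters TCAAGG, the core bound by LRH-1, and AGGTCA, the half-site of most nuclear receptors, each searched on both strands.
Nr0b2 (chr5:151062910-151063159, plus strand, GRCr8): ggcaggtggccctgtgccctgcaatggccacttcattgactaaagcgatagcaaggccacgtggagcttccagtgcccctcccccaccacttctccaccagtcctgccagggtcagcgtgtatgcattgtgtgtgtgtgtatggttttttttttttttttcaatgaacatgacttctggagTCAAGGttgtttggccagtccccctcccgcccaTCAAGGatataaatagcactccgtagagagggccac
Slc10a1 (chr6:106357945-106358194, minus strand, GRCr8): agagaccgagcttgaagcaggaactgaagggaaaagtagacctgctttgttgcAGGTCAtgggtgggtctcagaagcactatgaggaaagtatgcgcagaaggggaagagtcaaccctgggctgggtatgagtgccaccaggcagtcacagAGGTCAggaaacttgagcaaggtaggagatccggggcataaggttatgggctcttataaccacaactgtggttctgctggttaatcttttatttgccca
The Nr0b2 window held TCAAGG at 2 places, which end 63 and 30 bases before the start, and the letters TATAAA ending 23 bases before it. TCAAGG occurred in 12.6% of 33469 rat windows of this length and TATAAA in 12.9%. The Slc10a1 window held AGGTCA at 2 places, a half-site found in 14.1% of the windows. A promoter was at hand for 7 of the 8 regulators, in 8 windows with 2 for Hnf4a. None of these windows held AGGTCA, and TCAAGG was found in that of Nr0b2 alone. The direct and the inverted repeat of AGGTCA with 1 base between, and TTGCGCAA, the C/EBP palindrome, were in none of the 8 nor in that of Slc10a1; they occurred in 0.051%, 0.027% and 0.14% of all windows. GTTAAT, an HNF1 half-site, stood at 2 places in the second Hnf4a window and at 1 in that of Slc10a1, and in 6.45% of all windows.

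CAR mRNA fell with both drugs by both of its probes, which did not give the same size. The level of the brighter Nr1i3 probe was 10.03 to 13.08 (median 10.59) with SQ1, against 11.34 to 12.31 (median 11.94) in untreated cultures. The groups overlapped through 1 array, SQ1 replicate 5, whose ratio was 0.77, while the other 7 arrays were below 0 and the lowest was -1.44. The fitted change was -0.89 ± 0.15 (limma, adjusted p = 5.49e-05), and -1.10 without replicate 5. On that array the single spot of the brighter probe read 10532 in the SQ1 channel, against 4309 in the untreated channel, whereas the spot of the dimmer probe read 1286 against 2284. The dimmer probe gave ratios of -1.65 to -1.30 (median -1.53) with SQ1 and a fitted change of -1.50 ± 0.05 (adjusted p = 1.18e-14), a 2.83-fold fall. The brighter probe also differed by dye orientation. It averaged -0.44 on arrays whose SQ1 RNA carried Alexa 647 and -1.33 on those with Alexa 555, against -1.49 and -1.51 for the dimmer probe. With pravastatin the averages were -0.50 and -0.82, against -0.79 and -0.85. The cause was not tested. With pravastatin the brighter probe had a level of 10.64 to 12.38 (median 10.99), against 11.23 to 12.44 (median 11.72) in untreated cultures. Its ratios were -1.05 to -0.06 (median -0.64), with replicate 5 again the highest, and the fitted change was -0.66 ± 0.15 (adjusted p = 0.0022). Within the first series, which holds both arrays numbered 5, the pravastatin change was -0.47 and did not pass the test (adjusted p = 0.122). The dimmer probe gave -1.04 to -0.65 with pravastatin and a fitted change of -0.82 ± 0.05 (adjusted p = 2.48e-10). SQ1 minus pravastatin was -0.23 with a 95% interval of -0.70 to 0.24 by the brighter probe (adjusted p = 0.447) and -0.68 by the dimmer (adjusted p = 2.72e-07), and without SQ1 replicate 5 the brighter probe gave -0.44 (adjusted p = 0.0121).

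**Figure D3:**
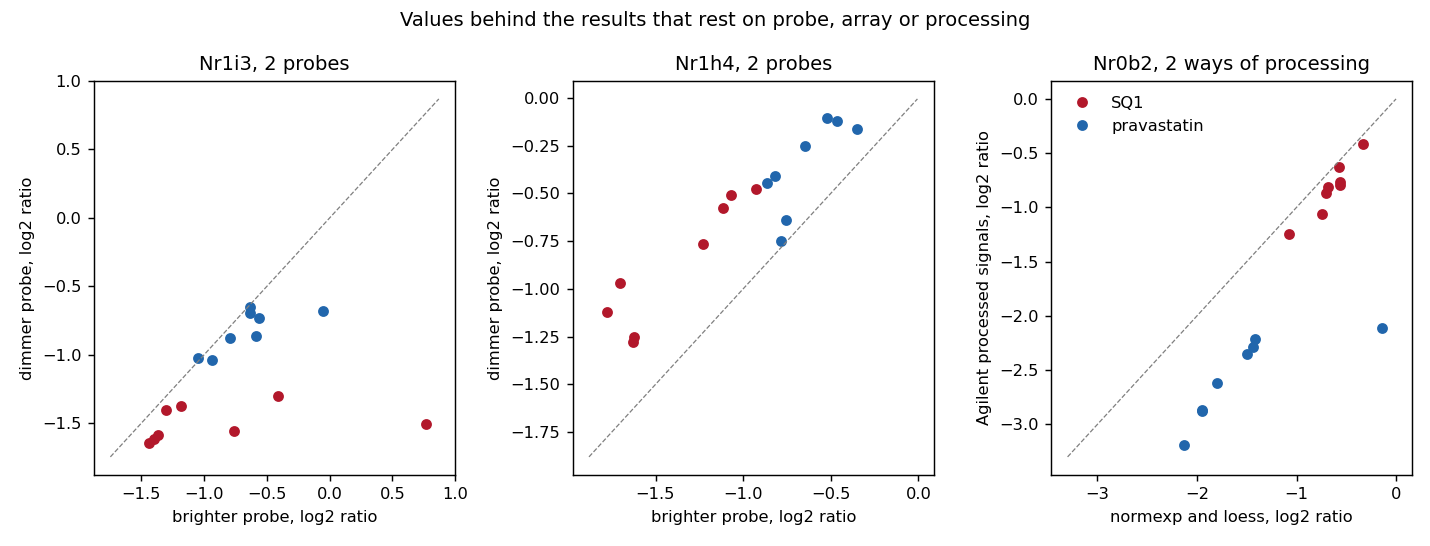
Log2 ratios of treated over untreated on 16 arrays for SQ1 (red) and pravastatin (blue), with a dashed line of equality. The first and second panels set the dimmer against the brighter probe of Nr1i3 and Nr1h4, and the third sets processed signals of the scanner software against the values used here for Nr0b2. One SQ1 array of Nr1i3 lies at 0.77 by the brighter probe and at -1.50 by the dimmer, and the pravastatin values of Nr0b2 lie below the line.

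The CAR target genes moved in opposite directions with the drugs, and with SQ1 they moved against the receptor's own mRNA. Of 13 measured targets, 12 rose and 1 fell with SQ1, with a median of 0.69, where 32.6% of all genes rose. The median over the list was 0.62 to 0.78 on the 8 arrays. The largest rises were in Cyp2b2, the classical phenobarbital-inducible cytochrome P450 of the rat (3.19 ± 0.09, 9.16-fold), Ugt2b1, a glucuronosyltransferase (2.64 ± 0.11), Cyp2c6v1, another cytochrome P450 (1.71 ± 0.07), and Abcc2, the canalicular conjugate export pump (1.25 ± 0.07). Each was higher on 8 of 8 arrays. With pravastatin, 1 rose and 11 fell, with a median of -0.28 and array medians from -0.47 to -0.13. Gsta2, a glutathione transferase, fell by 0.85 (SE 0.04), Ugt2b1 by 0.80 (SE 0.11), Cyp2c6v1 by 0.75 (SE 0.07) and Cyp2b2 by 0.57 (SE 0.09). SQ1 minus pravastatin passed the test for all 13, upwards in 12, with a median of 0.94. The exception in both tests was Gstm1, singled out after its values were seen, at -0.78 with SQ1 and -0.47 with pravastatin. Genes of the Cyp2b, Cyp3a and Cyp4a families are close in sequence, and a probe may read more than its named member.

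PXR mRNA fell with SQ1 without overlap of the groups. The level of Nr1i2 was 12.90 to 13.16 (median 13.005) with SQ1, against 13.46 to 13.93 (median 13.78) in untreated cultures. The ratio was -0.89 to -0.49 (median -0.71), and the fitted change -0.72 ± 0.04 (adjusted p = 5.41e-11), a 1.65-fold fall. With pravastatin the level was 13.42 to 13.72 (median 13.56), against 13.72 to 13.90 (median 13.77) in untreated cultures, so that the groups came close without overlapping. The ratio was -0.33 to -0.0014 (median -0.23) and the fitted change -0.20 ± 0.04 (adjusted p = 0.000923). SQ1 minus pravastatin was -0.52 ± 0.06 (adjusted p = 1.69e-06), and it passed the test under every one of the 30 alternatives run for it, at -0.29 with arrays scaled to one spread.

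The PXR targets divided with SQ1. Of 14 measured, 8 rose and 5 fell, with a median of 0.46. Cyp3a23-3a1, the main pregnenolone carbonitrile-inducible cytochrome P450 of the rat, rose by 1.94 (SE 0.14, 3.83-fold). Slco1a4, an organic anion uptake transporter, fell by 1.82 (SE 0.09), Cyp3a18, a further cytochrome P450 of that family, by 1.78 (SE 0.09), and Thrsp, a regulator of lipogenesis, by 1.55 (SE 0.08). With pravastatin none of the 14 rose and 10 fell, with a median of -0.29. Cyp3a18 fell by 1.94 (SE 0.09), Cyp3a23-3a1 by 1.49 (SE 0.14), Slco1a4 by 0.56 (SE 0.09) and Thrsp by 0.56 (SE 0.08). Cyp3a23-3a1 differed between the drugs by 3.43, while the difference for Cyp3a18 was 0.16 and did not pass the test (adjusted p = 0.349). Abcc2, Alas1 and Por, the partner reductase of cytochromes P450, stand on both the CAR and the PXR list, and 15 of the 119 genes on the 8 target lists stand on more than 1.

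PPARα mRNA moved little, up with SQ1 and, by a call that many settings lost, down with pravastatin. The level of Ppara was 7.72 to 8.04 (median 7.95) with SQ1, against 7.69 to 7.88 (median 7.79) in untreated cultures, which overlapped. Within arrays the ratio was above 0 on 8 of 8, at 0.03 to 0.28 (median 0.14), and the fitted change was 0.15 ± 0.03 (adjusted p = 0.000225), a 1.11-fold rise. Of all genes, 45.5% changed by more in either direction. With pravastatin the level was 7.60 to 8.01 (median 7.76), against 7.78 to 8.02 (median 7.86) in untreated cultures. The ratio was -0.30 to 0.06 (median -0.05) and the fitted change -0.08 ± 0.03 (adjusted p = 0.0425). That call was lost when any of pravastatin replicates 2, 3, 4, 5, 7 or 8 was left out (adjusted p from 0.062 to 0.155) and in the random block of replicate numbers (adjusted p = 0.069). It was also lost within the first series (-0.02, adjusted p = 0.767), under median centring (adjusted p = 0.061) and with the pravastatin arrays alone (adjusted p = 0.085). The slide as a random block lost it too (adjusted p = 0.126). The drugs differed, SQ1 minus pravastatin, by 0.23 ± 0.04 (adjusted p = 0.00027), and by 0.12 within the first series, where the test was not passed (adjusted p = 0.112). From the processed signals of the scanner software the SQ1 change was 0.23 and the difference 0.36.

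Most PPARα targets rose with SQ1. Of 29 measured, 26 rose and 3 fell, with a median of 0.60 and array medians of 0.58 to 0.72. Acot1, an acyl-CoA thioesterase, rose by 2.93 (SE 0.04, 7.61-fold), Cyp4a2, a fatty acid ω-hydroxylase, by 2.79 (SE 0.10), Pdk4, the kinase that shuts off pyruvate dehydrogenase, by 1.91 (SE 0.09), and Acsl1, a long-chain acyl-CoA synthetase, by 1.79 (SE 0.04). Among those that fell, and named after their values were seen, were Fgf21 (-0.94), a hepatic fasting hormone, and Cyp4a8 (-0.63). With pravastatin 5 rose and 10 fell, with a median of -0.05 that was 0.02 under median centring and 0.04 within the first series. Ehhadh and Cyp4a1, peroxisomal and microsomal enzymes of fatty acid oxidation, fell by 0.53 (SE 0.06) and 0.49 (SE 0.06), Angptl4, an inhibitor of lipoprotein lipase, rose by 0.44 (SE 0.03), and Acadvl, a mitochondrial dehydrogenase, fell by 0.30 (SE 0.03). SQ1 minus pravastatin passed upwards for 24 and downwards for 3 of the 29, against 18.4% and 19.4% of all genes.

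**Figure D4:**
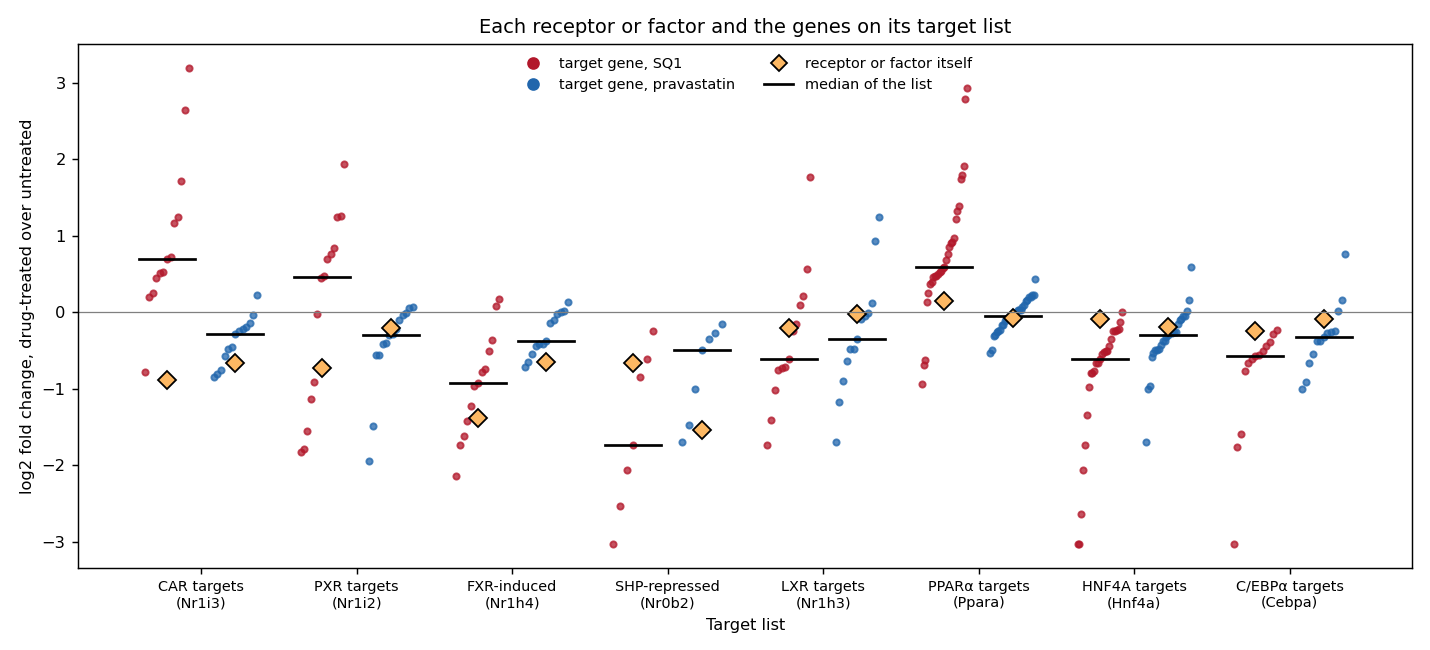
Fitted log2 fold change of treated over untreated for every measured gene on each target list (points), the list's median (black line) and the receptor or factor itself (diamond), with SQ1 (red) left of pravastatin (blue). With SQ1 the medians of the CAR and PPARα lists are 0.69 and 0.60 while the diamonds stand at -0.89 and 0.15; the SHP-repressed genes lie below 0 with both drugs.

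LXRα mRNA fell slightly with SQ1. The level of Nr1h3 was 13.53 to 13.92 (median 13.69) with SQ1, against 13.74 to 14.08 (median 13.94) in untreated cultures, which overlapped. The ratio was below 0 on 8 of 8 arrays, at -0.37 to -0.09 (median -0.20), and the fitted change was -0.20 ± 0.03 (adjusted p = 9.98e-06), or -0.09 under median centring (adjusted p = 0.0446). With pravastatin the level was 13.65 to 14.01 (median 13.95), against 13.72 to 14.06 (median 13.95) in untreated cultures, and the ratio was -0.07 to 0.09. The fitted change was -0.02 with a 95% interval of -0.08 to 0.04 and did not pass the test (adjusted p = 0.657). The difference of SQ1 minus pravastatin was -0.18 ± 0.04 (adjusted p = 0.00212), and -0.12 under median centring, where it did not pass (adjusted p = 0.0984).

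The LXR targets held both large rises and large falls. Of 13 measured, 2 rose and 9 fell with SQ1 (median -0.61), and 3 rose and 7 fell with pravastatin (median -0.35). Abcg5, which exports sterols into bile, rose by 1.76 (SE 0.13) with SQ1 and by 1.24 (SE 0.13) with pravastatin. With SQ1, Cyp7a1, which is an LXR target in rodents, fell as given above, Scd, the stearoyl-CoA desaturase, fell by 1.41 (SE 0.06), and Lpl, lipoprotein lipase, by 1.01 (SE 0.07). With pravastatin, Abcg1, a sterol exporter abundant in macrophages, fell by 1.17 (SE 0.10) and Fasn, fatty acid synthase, rose by 0.94 (SE 0.11). Fasn had 0.21 with SQ1 (adjusted p = 0.0942). LXRα is also made by macrophages, and all 15 macrophage markers fell with SQ1 (median -0.58) and with pravastatin (median -0.83). Their summed signal was 46378 to 69929 with SQ1, against 64204 to 116157 in untreated cultures. With pravastatin it was 44287 to 52383, against 69481 to 104246 in untreated cultures, and all 15 were well above background in every channel. Their part in the values of Nr1h3, Abcg1 and Lpl was not tested.

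HNF4A and C/EBPα changed by small amounts. The level of Hnf4a was 8.98 to 9.19 (median 9.05) with SQ1, against 9.01 to 9.28 (median 9.17) in untreated cultures, and the ratio was -0.19 to 0.04 (median -0.10), below 0 on 7 of 8 arrays. The fitted change was -0.08 ± 0.03 (adjusted p = 0.0257), a 1.06-fold fall, and 61.8% of genes changed by more in either direction. The fall of Hnf4a did not pass the test without SQ1 replicate 3, 7 or 8 (adjusted p from 0.052 to 0.078) or within either series. With pravastatin the level was 8.71 to 9.20 (median 9.002), against 8.92 to 9.36 (median 9.21) in untreated cultures, and the ratio was -0.45 to -0.07 (median -0.14). The fitted change was -0.19 ± 0.03 (adjusted p = 0.000119), below 0 on 8 of 8 arrays. SQ1 minus pravastatin was 0.10 with a 95% interval of 0.01 to 0.20 and did not pass (adjusted p = 0.0773), but did with the replicate number as a random (adjusted p = 0.027) or fixed block (adjusted p = 0.043) and without pravastatin replicate 1 (0.13, adjusted p = 0.0155). It also passed with arrays scaled to one spread (0.17, adjusted p = 0.0046). From the processed signals of the scanner software and from the deposited value table it was 0.14 and passed (adjusted p = 0.032 in each).

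Cebpa, the founding member of the C/EBP family in liver, had a level of 8.12 to 8.48 (median 8.31) with SQ1, against 8.45 to 8.70 (median 8.56) in untreated cultures. The ratio was -0.42 to -0.05 (median -0.23), below 0 on 8 of 8 arrays, and the fitted change was -0.24 ± 0.03 (adjusted p = 5.31e-06). With pravastatin the level was 8.24 to 8.61 (median 8.52), against 8.50 to 8.73 (median 8.59) in untreated cultures, and the ratio was -0.41 to 0.08 (median -0.05). The fitted change was -0.09 ± 0.03 (adjusted p = 0.0391), a call lost without pravastatin replicate 2, 3, 5, 7 or 8 (adjusted p from 0.062 to 0.148), in the random block of replicate numbers (adjusted p = 0.054) and within each series. The difference of SQ1 minus pravastatin was -0.15 ± 0.05 (adjusted p = 0.0192), which did not pass with arrays scaled to one spread (-0.08, adjusted p = 0.275), within the second series (-0.09, adjusted p = 0.363), under median centring (-0.15, adjusted p = 0.0648) or with the slide as a random block (adjusted p = 0.0970).

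Most targets of both factors fell with both drugs. None of 25 measured HNF4A targets rose with SQ1 and 23 fell, with a median of -0.61, and 2 rose and 19 fell with pravastatin, with a median of -0.30. With SQ1, Pklr, the liver pyruvate kinase, fell by 2.64 (SE 0.11), beside G6pc1 and Cyp8b1 given above. With pravastatin, Otc, the urea cycle ornithine transcarbamylase, fell by 0.96 (SE 0.06), beside Cyp7a1 and G6pc1, while Apoa1, the main protein of high-density lipoprotein, rose by 0.60 (SE 0.07). Pklr had -0.09 with pravastatin (adjusted p = 0.602). Of 13 measured C/EBPα targets, none rose and 13 fell with SQ1 (median -0.57), while 2 rose and 10 fell with pravastatin (median -0.32). Arg1 and Cps1, enzymes of the urea cycle, fell by 1.76 (SE 0.10) and 1.59 (SE 0.07) with SQ1, and Serpina1, α1-antitrypsin, by 0.77 (SE 0.04). With pravastatin, Arg1 fell by 0.91 (SE 0.10) and Adh1c, an alcohol dehydrogenase, by 0.67 (SE 0.06), whereas Hamp, hepcidin, rose by 0.76 (SE 0.08). F9, G6pc1, Gys2, Pck1, Serpina1, Tat and Ttr stand on both the HNF4A and the C/EBPα list. Cyp7a1, Cyp8b1, G6pc1, Mttp and Pck1 stand on both the HNF4A and the SHP list. The counts of these lists are therefore not independent of each other. The HNF4A and C/EBPα lists also share genes such as Serpina1 and Ambp with the hepatocyte markers. With pravastatin, Alb, Ambp, Apoc3, Tf and Ttr were each called although higher on 4 arrays and lower on 4, as was Ttr with SQ1.

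Partner receptors and other factors of the liver were set beside the 8 genes. Of 24 partner and related receptors, 5 rose and 11 fell with SQ1 (median -0.06), and none rose and 8 fell with pravastatin (median -0.08). Of all genes, 63.8% passed the test with SQ1 and 38.9% with pravastatin. Rxra, the shared partner of most of these receptors, had -0.06 with SQ1 (adjusted p = 0.0891) and 0.01 with pravastatin (adjusted p = 0.861). Besides Nr5a2, SQ1 lowered Nr2f2 (COUP-TFII, -0.78 ± 0.15) and raised Nr2c1, an orphan receptor (0.36 ± 0.04). Nr2f2 did not pass the test within the first series alone. Nr2f2 fell with pravastatin as well (-0.55 ± 0.15). Nr4a1, an immediate early receptor, fell by 0.24 (SE 0.03) with each drug. Nr1d1, a receptor of the clock, fell by 0.26 (SE 0.05) with SQ1, on 7 arrays with a value, and by 0.22 (SE 0.04) with pravastatin, and Ppard fell by 0.18 (SE 0.03) and 0.11 (SE 0.03). With pravastatin these last 2 did not pass within the first series. Between the drugs 6 of the 24 differed, where 37.9% of all genes did. The count was 14 with replicate number as a fixed block and 11 as a random block, where 47.6% of all genes passed in each. It was 2 with arrays scaled to one spread (20.8% of all genes) and 3 within the first series (23.3%).

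Of 22 other liver transcription factors, 8 rose and 13 fell with SQ1 (median -0.22), and 4 rose and 8 fell with pravastatin (median -0.05). Of all genes, 63.8% passed the test with SQ1 and 38.9% with pravastatin. Klf15, a factor of amino acid breakdown, fell by 1.47 (SE 0.04) with SQ1 and by 0.71 (SE 0.04) with pravastatin. Foxa1, a pioneer factor of the liver, fell by 1.44 (SE 0.06) and by 0.33 (SE 0.06), and Foxa3, of the same family, by 0.72 (SE 0.05) with SQ1 and by 0.43 (SE 0.05) with pravastatin. Dbp, a clock output factor, rose by 0.98 (SE 0.04) with SQ1 and by 0.17 (SE 0.04) with pravastatin. SQ1 raised Creb3l3, a partner of PPARα in fasting (0.91 ± 0.05). Srebf2, the regulator of cholesterol synthesis, rose by 0.39 (SE 0.07) with SQ1 and by 0.78 (SE 0.07) with pravastatin. Of 15 co-regulators and cytosolic partners of CAR, 5 rose and 6 fell with SQ1 (median -0.02), where 63.8% of all genes passed. With pravastatin none rose and 2 fell (median -0.03), where 38.9% of all genes passed. With replicate number as a fixed block, 6 in all passed with pravastatin, where 48.4% of all genes did. SQ1 lowered Lpin1, a coactivator of PPARα and a phosphatidate phosphatase (-0.70 ± 0.05), and Crebbp, a histone acetyltransferase (-0.23 ± 0.03), and raised Hsp90aa1, the chaperone that holds CAR in the cytosol (0.37 ± 0.03).

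The genes whose 16 dye-corrected log2 ratios lay nearest to those of the 4 regulators changed by 1.5-fold or more were found by the root mean square difference. Nr1h4 was nearest to Rnase4, a secreted ribonuclease (0.104), Gpld1, a phospholipase of the plasma (0.105), and Slc25a23, a mitochondrial carrier (0.133). Nr1i2 was nearest to Glyatl2 (0.066), Fxyd6 (0.075) and Acsm1 (0.080). The brighter probe of Nr1i3 had no gene as near, the closest being Pemt (0.354), which methylates phosphatidylethanolamine, Hao1 (0.367), a peroxisomal oxidase, and C5ar1 (0.370), a complement receptor. Nr0b2 was nearest to Cd93 (0.323), Vcam1 (0.334) and Abcg1 (0.342), which had -1.36, -1.30 and -1.17 with pravastatin, against -0.80, -0.58 and -0.76 with SQ1. These are descriptions of likeness over 16 arrays that share untreated cultures.

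Markers of cells other than hepatocytes were measured in the same cultures. Besides the macrophage list, all 10 stellate cell and fibroblast markers fell with SQ1 (median -0.60), led by Lrat (-0.81 ± 0.06) and Col3a1 (-0.77 ± 0.05), while 4 fell with pravastatin (median -0.09). Their summed signal was 19932 to 28007 with SQ1, against 36193 to 39459 in untreated cultures, and 30598 to 37012 with pravastatin, against 35621 to 40133. Of 4 endothelial markers, 3 fell with SQ1, among them Lyve1 (-0.80 ± 0.08) and Kdr (-0.43 ± 0.03), and 1 fell with pravastatin. Their summed signal was 994 to 1462 with SQ1, against 1395 to 2335 in untreated cultures, and 1277 to 2805 with pravastatin, against 1327 to 2412. Of 6 cholangiocyte markers, 1 rose and 2 fell with SQ1 (median -0.03), and 2 rose and 1 fell with pravastatin (median 0.03). Epcam, an adhesion molecule of epithelia, rose with both (0.57 ± 0.03 with SQ1 and 0.37 ± 0.03 with pravastatin), and Spp1, osteopontin, fell with both (-0.34 ± 0.10 and -0.32 ± 0.10). Of the 6, 4 were well above background in all 32 channels, and the summed signal of the 6 was 29045 to 34634 with SQ1, against 19569 to 24061 in untreated cultures, and 23098 to 32465 with pravastatin, against 18738 to 24815. Clec4f, which marks Kupffer cells, the macrophages of the liver, fell by 1.53 (SE 0.08) with pravastatin, and Cd68 by 1.04 (SE 0.06). These marker changes stood beside the changes of the 8 regulators on the same arrays. The part of the marker changes in Nr0b2, whose nearest genes Cd93 and Vcam1 are made by endothelial and myeloid cells, was not tested.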

How the data were processed

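Per the labels, 1 round of amplification gave aminoallyl RNA, which carried Alexa 555 or 647. Spots were measured with Agilent Feature Extraction 10.7.1.1, as the file headers state. In the deposited scanner files the authors give median spot and background intensity, processed intensity and a log10 ratio; the deposited value table gives log2 ratios. It served only as an alternative, with its columns matched as described.

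Median intensities were background-corrected with normexp (offset 50) and normalised by loess within arrays in limma 3.58.1 (R 4.3.3). Control spots had no weight, and 0 to 28 non-uniform spots per array were left out. No spot was saturated. A probe had to be well above background in 6 or more of 32 channels, and the brightest stood for a gene. Levels are the channel values after Aquantile. A model with SQ1, pravastatin and dye was fitted to 16 arrays by limma, with Benjamini-Hochberg adjustment over 20789 genes, 11940 with a symbol; called means an adjusted p under 0.05. A plus-minus value after a fold change is its SE, and a "95% interval" is unadjusted. The steps were tested on simulated data. GEO's design text calls the replicates biological, and no label names separate animals, so p-values measure the spread between these samples. The number of arrays limits precision.

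The members and lists were chosen with earlier results of these data known. Named genes are all members and up to 4 called genes per list and drug with the largest change and 1 sign on 8 of 8 arrays, and the 3 nearest genes of members changed 1.5-fold; others are marked or serve as context, and some genes the rule names are not reported here. Same-numbered arrays share a control number, read from the deposited names, and their residuals correlated at 0.143 to 0.628. Replicates 2, 7 and 8 correlated more with another number (0.361, 0.391 and 0.331), so the residuals do not show the pairing for every number. The main model holds no replicate block and so treats the arrays as unpaired. With the number as a random block, 47.6% of all genes passed between the drugs, against 37.9% in the main model. The alternatives tried are given in the closing part. Of the list genes, 24 had no probe matched through RefSeq and 4 were too dim; they were not analysed here. Promoters are from RefSeq, build GRCr8.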

Additional observations from a re-analysis of the deposited data

Results flagged for a closer look

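Nr1i3 on SQ1 replicate 5 lay far from the other 7 arrays by its brighter probe, at 0.77 where the next was -0.41, and the gap made up 0.534 of the whole range, above Dixon's 95% critical value for 8 arrays. The dimmer probe read -1.50 on that array. Nr0b2 on pravastatin replicate 1 stood apart in the same way, at -0.14 where the next was -1.41 (0.640 of the range), and at -2.11 by the processed signals of the scanner software. Chance flags about 1 in 20 groups, and 16 groups were examined.

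Changes of 3 genes differed between the second and the first culture series, by the test of the difference in limma. They were Nr1i2 with SQ1 (second minus first -0.24), Nr1h4 with SQ1 (-0.60) and with pravastatin (-0.31), and Nr0b2 with pravastatin (-0.83, and -0.50 without pravastatin replicate 1). Series, slide and scan day cannot be told apart.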

How the results depend on the processing

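Each result was recomputed under up to 31 alternatives, of which the use of the other probe of Nr1i3 and Nr1h4 was chosen after seeing the data, as was leaving out arrays from the culture series differences. For the 8 genes, 685 values kept their direction and side of the threshold, 38 lost a call, 10 gained one and 3 turned: Nr1h3 with pravastatin under median centring (0.030) and within the first series (0.0040), and Nr1i3 for SQ1 minus pravastatin with arrays scaled to one spread (0.26). The count of members called with pravastatin was 4 within the first series. Leaving out 1 array at a time, members called were 7 to 8 with SQ1, 5 to 7 with pravastatin and 6 to 7 between the drugs. With arrays scaled to one spread, SQ1 minus pravastatin called 4 FXR, 3 SHP, 9 HNF4A and 4 C/EBPα targets, against 11, 6, 20 and 12, and 4327 of all genes against 7873; the first series alone called 4013 of all genes with pravastatin, against 8083, and 4839 between the drugs. The cause was not tested. With the replicate block as a fixed or random term, Hnf4a passed between the drugs (0.10), and with the fixed term counts rose as given for the partner receptors and co-regulators; as a random block (correlation 0.393) Cebpa (-0.09) and Ppara (-0.08) lost their pravastatin calls, and the blocks changed no other call of the 8 genes. With the slide as a random block (correlation 0.193), Hnf4a with SQ1 (-0.08), Cebpa with pravastatin (-0.09) and between the drugs (-0.15), and Ppara with pravastatin (-0.08) lost theirs. The LXR list median between the drugs was -0.04, and 0.18 from processed signals. Nr1i2 with either drug and between the drugs, and Nr1h4 with either drug, kept direction and call in every alternative run. Signal over background limits Nr0b2.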
